A study of Homo sapiens with 18 samples.

Results

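The 50 genes described here encode the machinery of mitosis: the kinases and cyclins that start it, the spindle and kinetochore parts that move chromosomes, the checkpoint that delays anaphase, and the proteins that divide the cell. They were taken by symbol from a table of 58870 genes, and all 50 were found. All 50 also passed the filter on low counts, the smallest count of any of them in any library being 16, so no member was lost to it. Their expression was followed by RNA sequencing in NCI-H295R, an established human line from an adrenocortical carcinoma, able to make steroids. The 6 groups, each of 3 biological replicates, were cells exposed for 48 h to STA9090, to PIK75, to BGT226, to STA9090+PIK75 or to STA9090+BGT226, and untreated cells. STA9090 (ganetespib) inhibits the chaperone HSP90, PIK75 inhibits PI3K, and BGT226 inhibits PI3K and mTOR. The stated concentration was 20 nM, the share of each agent in a combination was not given, and whether untreated cells received solvent is not stated. The work was done in a single cell line, which limits every comparison to that line.

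As background, mitotic genes are transcribed in a wave that starts in the G2 phase. The MuvB protein complex binds their promoters at the cell cycle genes homology region (CHR), a short sequence just before the start: with the RB-like proteins it forms the DREAM repressor of resting cells, and with B-MYB and FOXM1 it forms an activator in dividing cells. The factor NF-Y binds CCAAT boxes in the same promoters. PI3K and mTOR signalling drives growth and entry into the cell cycle, and several mitotic kinases are clients of HSP90.

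Promoters were read because most members share these elements. RefSeq promoters (GRCh38.p14), 300 bases each, from 250 before to 50 after the start, were at hand for 43 of the 50 members, the first start being used for the 7 that had several. UBE2C, BIRC5, TPX2, TTK, BUB3, FOXM1 and AURKA had no entry. The CHR letters TTTGAA, or TTCAAA on the other strand, were in 28 of the 43 (65.1%), against 15.2% of all 35116 promoters of that length and 9.52% of the 10646 promoters of tested genes. The CCAAT letters, or ATTGG, were in 33 of 43 (76.7%), against 34.6% and 37%. Both were in 24 of 43 (55.8%), against 5.9% and 4.1%. In a list of 30 genes of the G1/S transition and DNA replication, 1 of the 27 with a promoter held the CHR letters (3.7%) and 15 the CCAAT letters (55.6%). In lists of other mitotic genes the CHR share was 66.7% of 12 regulators of entry and exit, 56.5% of 23 other spindle, motor and cytokinesis genes, 46.7% of 15 condensin and cohesin genes, 36% of 25 other kinetochore genes and 21.4% of 14 APC/C genes. In MKI67 and CDCA8 a CHR and a CCAAT box share 1 base, and a match is only a description of the letters. Given here are 150 bases before to 50 after the start of 8 members whose values the results turn on, 5′ to 3′ on the gene's strand, with CHR and CCAAT letters in capitals. They lie at chr15:59104996-59105195, plus strand (CCNB2), chr16:23678739-23678938, plus strand (PLK1), chr1:43358831-43359030, plus strand (CDC20), chr2:26785906-26786105, plus strand (CENPA), chr14:55191536-55191735, minus strand (DLGAP5), chr2:168890381-168890580, minus strand (SPC25), chr1:44739687-44739886, plus strand (KIF2C) and chr20:43666964-43667163, plus strand (MYBL2).
CCNB2: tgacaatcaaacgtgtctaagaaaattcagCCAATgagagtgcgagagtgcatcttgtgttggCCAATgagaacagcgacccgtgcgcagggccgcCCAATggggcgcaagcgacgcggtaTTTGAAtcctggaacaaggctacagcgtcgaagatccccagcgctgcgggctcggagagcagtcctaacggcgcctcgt
PLK1: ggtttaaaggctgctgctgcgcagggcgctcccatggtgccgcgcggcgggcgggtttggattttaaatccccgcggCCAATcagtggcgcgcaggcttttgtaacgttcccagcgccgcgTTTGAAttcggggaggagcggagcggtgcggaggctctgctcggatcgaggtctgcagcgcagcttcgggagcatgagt
CDC20: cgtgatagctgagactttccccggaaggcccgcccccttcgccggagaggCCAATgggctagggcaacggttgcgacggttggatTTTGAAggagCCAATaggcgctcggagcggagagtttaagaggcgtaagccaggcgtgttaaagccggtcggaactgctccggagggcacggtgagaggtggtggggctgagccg
CENPA: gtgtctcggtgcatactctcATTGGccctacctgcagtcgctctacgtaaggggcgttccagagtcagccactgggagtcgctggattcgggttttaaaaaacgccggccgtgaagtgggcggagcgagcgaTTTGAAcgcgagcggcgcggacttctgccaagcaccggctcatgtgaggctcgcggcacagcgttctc
DLGAP5: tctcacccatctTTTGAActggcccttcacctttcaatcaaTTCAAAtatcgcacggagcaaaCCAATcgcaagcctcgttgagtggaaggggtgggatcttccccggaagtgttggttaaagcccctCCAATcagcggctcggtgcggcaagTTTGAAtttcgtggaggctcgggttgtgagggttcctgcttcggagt
SPC25: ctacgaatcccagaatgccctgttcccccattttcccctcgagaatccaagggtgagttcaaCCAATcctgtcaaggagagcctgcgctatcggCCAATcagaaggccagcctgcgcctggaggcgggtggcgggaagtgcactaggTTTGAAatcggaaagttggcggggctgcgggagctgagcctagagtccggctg
KIF2C: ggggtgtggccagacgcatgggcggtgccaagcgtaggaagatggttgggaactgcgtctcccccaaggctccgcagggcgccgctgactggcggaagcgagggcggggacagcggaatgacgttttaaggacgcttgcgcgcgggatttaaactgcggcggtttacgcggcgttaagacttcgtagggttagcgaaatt
MYBL2: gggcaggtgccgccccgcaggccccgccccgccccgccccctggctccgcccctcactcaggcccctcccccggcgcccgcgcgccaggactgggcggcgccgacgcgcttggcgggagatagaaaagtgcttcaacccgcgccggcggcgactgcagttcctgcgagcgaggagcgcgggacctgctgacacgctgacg

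The first 6 hold both elements. In CCNB2 and PLK1 the CHR begins 29 bases before the start, and in CENPA 18 bases before it. KIF2C and MYBL2 hold neither in the stretch shown. Set against untreated cells, the median log2 fold change with BGT226 was -0.31 over the 28 members with the CHR letters. It was -0.35 over the 15 without them, and with PIK75 the medians were 0.205 and 0.206. Other spellings of the CHR were not searched, so a member without these letters may still hold one.

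Library totals ran from 10.2 to 21.1 M expected counts, with group means from 12.8 to 14.6 M. Levels below are CPM (counts per 1 M counts) after TMM scaling. Transcripts of RNA polymerase III genes took 28.6 to 40.3% of the counts and mitochondrial mRNAs 4.71 to 10.7%. Adrenocortical markers were present in every library (summed level of 7 genes 841 to 2356 CPM, lowest with STA9090+PIK75). Endothelial and leukocyte markers were at or near 0 (at most 0.16 and 1.2 CPM). Fibroblast markers summed to 0.71 to 1.2 CPM with STA9090+PIK75, against 4.64 to 11.3 CPM in the other groups. Only 1 of these 4 fibroblast genes passed the filter on low counts. The part of all these markers in the results was not tested. All pairs of replicates differed by more than counting noise.

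BGT226 lowered 31 of the 50 mitotic genes alone (15.7% of all genes tested were called lower) and 33 with STA9090 (20.4%), and PIK75 alone raised 19 (8.49% of all genes called higher). With STA9090+PIK75, 11 were higher and 8 lower, shares of 22% and 16% against 18.3% and 20.1% of all genes tested. These comparisons share the untreated libraries. The median member's log2 CPM, relative to the mean of the untreated libraries, was 0.11 ± 0.07 with STA9090, 0.21 ± 0.02 with PIK75, -0.35 ± 0.02 with BGT226, 0.08 ± 0.07 with STA9090+PIK75, -0.41 ± 0.07 with STA9090+BGT226, and 0.00 ± 0.04 in untreated cells (SD, n = 3). Each BGT226 and STA9090+BGT226 library was below each other library, and the PIK75 libraries were the 3 highest. These are bulk RNA levels, in which fewer cells in mitosis and less RNA per cell cannot be told apart.

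**Figure D1:**
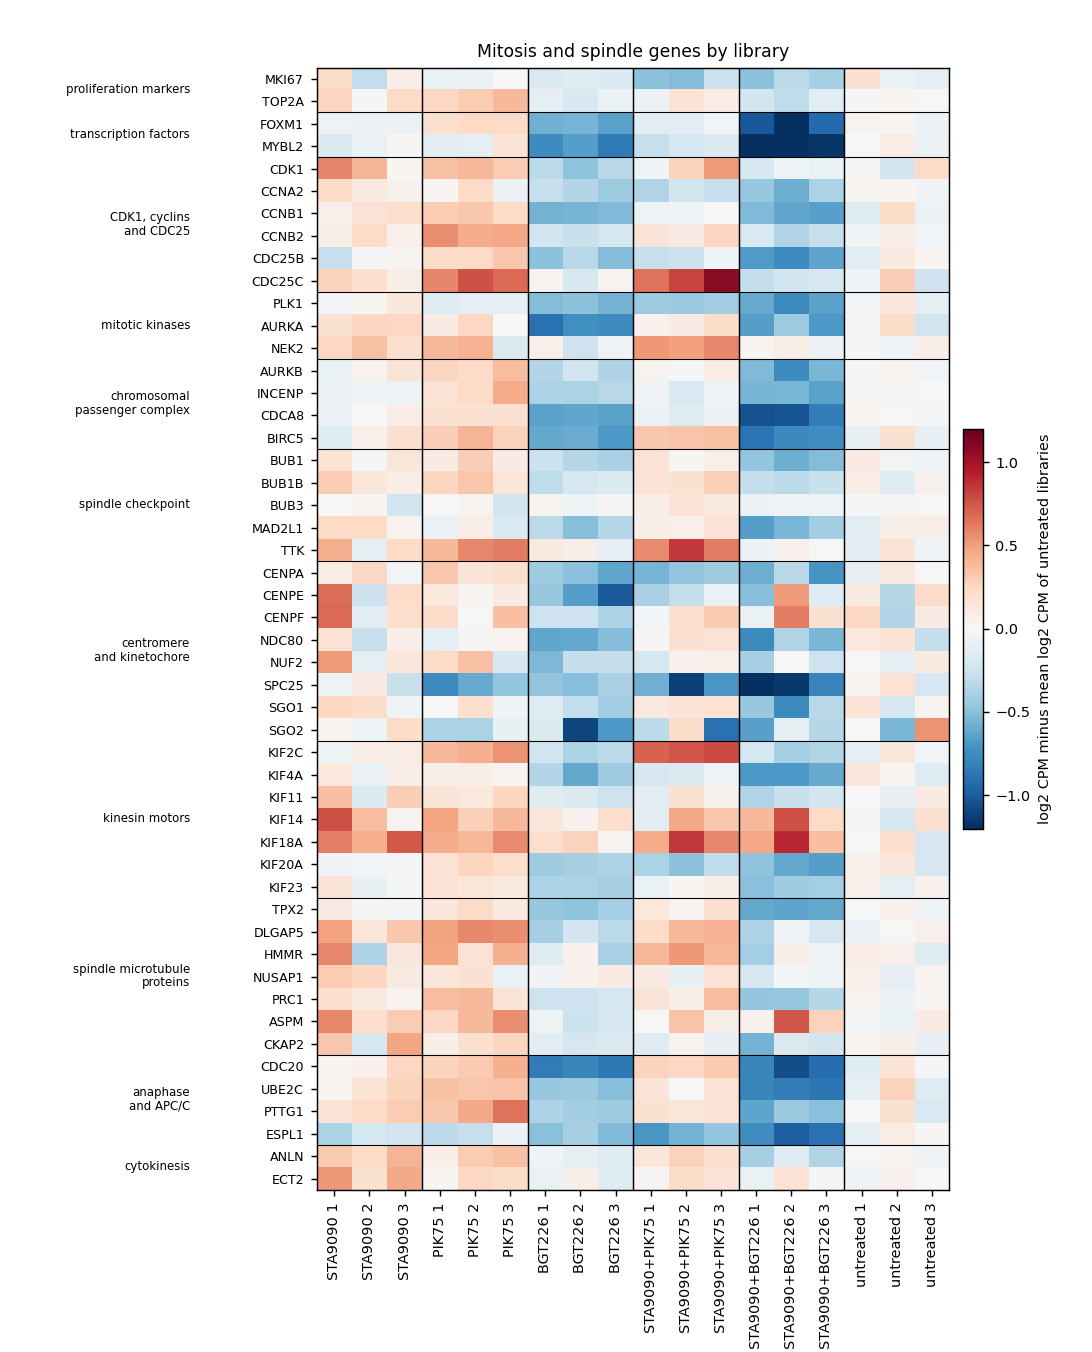
Log2 CPM of the 50 genes (rows, grouped by role) in each of the 18 libraries (columns), relative to the mean log2 CPM of the untreated libraries. Colours from blue (lower) to red (higher) are limited at 1.2 in either direction; the BGT226 and STA9090+BGT226 columns are mostly blue, the PIK75 columns mostly red.

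With BGT226, 31 of the 50 members fell and 0 rose relative to untreated cells, with a median log2 fold change of -0.35 (all tested genes 0.01). Of all 15787 genes tested, 15.7% were called lower and 12.8% higher. DESeq2 also called 31 lower and 0 higher, and at an unadjusted p under 0.05 edgeR had 34 lower and 0 higher. Over all genes, 6235 of the 15787 passed that unadjusted threshold in either direction. Below, counts with DESeq2 or at an unadjusted p stand without the share of all genes unless it is printed. In 37 of 50 members every BGT226 library was below every untreated library, as in 23.3% of all genes. All 4 genes of the chromosomal passenger complex, all 4 of the anaphase group and both transcription factors fell, as did 5 of 6 in the group of CDK1, cyclins and CDC25; neither cytokinesis gene nor either proliferation marker was called.

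With PIK75, 19 of 50 members rose and 1, SPC25, fell, with a median of 0.21 (all genes 0.00). Of all genes, 8.49% were called higher and 10.2% lower. Again all 4 passenger complex genes were called, here upwards, with 4 of 6 in the CDK1 group and 3 of 4 in the anaphase group, and 31 members had PIK75 libraries all above the untreated ones, as in 15.6% of all genes. The count of 19 fell to 11 without untreated replicate 1 or without PIK75 replicate 2. It fell to 12 without untreated replicate 3 and to 12 when the fit held the PIK75 and untreated groups alone. Without PIK75 replicate 3, 2 members fell. Of the 19 rises, only those of TOP2A, CCNB1, CDC20, CDC25C, DLGAP5 and TTK were followed singly through such fits.

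STA9090 alone raised 2 of 50 members, ANLN and ECT2, and lowered 0, with a median of 0.14; 1.16% of all genes were called higher and 1.68% lower. At an unadjusted p under 0.05, edgeR had 12 members higher and 1 lower. Over all genes, 2902 of the 15787 tested passed that threshold in either direction. DESeq2 called 3 members higher and 1 lower. The edgeR count went to 0 without STA9090 replicate 1 or any 1 untreated library, to 1 without STA9090 replicate 3, to 4 without STA9090 replicate 2, and to 0 after a correction for transcript GC content.

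STA9090+PIK75 raised 11 members and lowered 8 relative to untreated cells, with a median of 0.10; 18.3% of all genes were called higher and 20.1% lower. Without STA9090+PIK75 replicate 3, or without untreated replicate 3, 7 rose and 8 fell. STA9090+BGT226 lowered 33 members and raised 3, with a median of -0.43, against 20.4% of all genes lower and 19.4% higher. The 3 that rose, KIF14, KIF18A and ASPM, were not called without STA9090+BGT226 replicate 2, and 1 rose without untreated replicate 1 or 2.

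**Figure D2:**
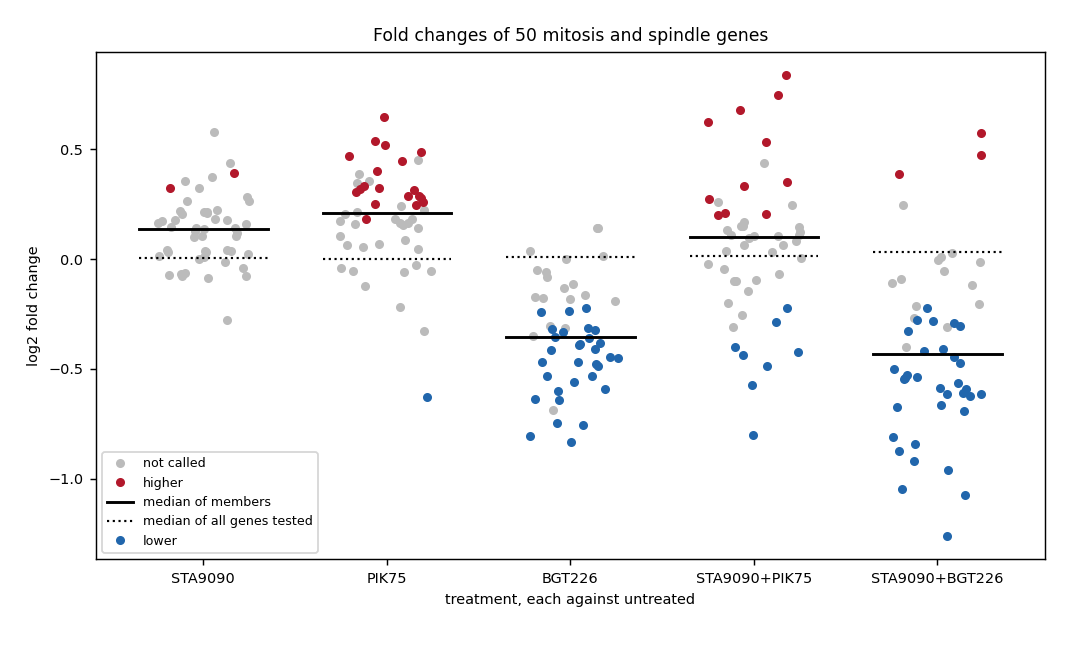
Log2 fold change against untreated cells of each of the 50 genes (points) for the 5 treatments, coloured by the call at an adjusted p under 0.05. Solid lines mark the median of the 50 genes (-0.35 with BGT226, 0.21 with PIK75) and dotted lines the median of all genes tested.

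Among the transcription factors that drive this programme, MYBL2 (B-MYB, chr20:43667019-43716496, plus strand in hg38) and FOXM1 (chr12:2857681-2877155, minus strand) showed the deepest falls with STA9090+BGT226. MYBL2 was at 111, 118 and 126 CPM with STA9090, 114, 115 and 139 with PIK75, 73.9, 78.8 and 69.3 with BGT226, 103, 108 and 111 with STA9090+PIK75, 52, 48.6 and 55.6 with STA9090+BGT226, and 124, 133 and 118 in untreated cells. Its STA9090+BGT226 libraries were the 3 lowest, its BGT226 libraries came next, and neither overlapped the untreated ones. The log2 fold change was -1.26, SE 0.0859, adjusted p = 1.76e-09 with the combination and -0.76, SE 0.0845, adjusted p = 1.67e-06 with BGT226 alone. With STA9090+PIK75 it was -0.22, SE 0.0835, adjusted p = 0.0425, a call that ended after the GC correction (-0.15, adjusted p = 0.0593) or without STA9090+PIK75 replicate 1, 2 or 3, or without untreated replicate 1 or 2 (-0.24 to -0.18, adjusted p = 0.0629 to 0.145). FOXM1 had 228, 226 and 226 CPM with STA9090, 272, 280.2 and 278 with PIK75, 160.2, 162 and 153 with BGT226, 218, 217 and 232 with STA9090+PIK75, 118, 96.6 and 124 with STA9090+BGT226, and 244, 244 and 226 in untreated cells. PIK75 libraries lay above the untreated ones without passing the test (0.22, adjusted p = 0.0661), whereas both BGT226 groups lay below them (-0.59, adjusted p = 1.79e-05 with BGT226 and -1.07, adjusted p = 6.62e-09 with STA9090+BGT226). These were also the 2 members with the largest called falls when STA9090+BGT226 was set against BGT226 alone (-0.50, SE 0.0861, adjusted p = 0.00249 for MYBL2 and -0.48, SE 0.0813, adjusted p = 0.00217 for FOXM1).

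The proliferation markers differed from each other. MKI67 (Ki-67, which coats mitotic chromosomes, chr10:128096659-128126385, minus strand) had 344, 239.9 and 313 CPM with STA9090, 279, 282 and 294 with PIK75, 263, 268 and 264 with BGT226, 210.3, 205 and 248 with STA9090+PIK75, 209.8, 235 and 224 with STA9090+BGT226, and 336, 279 and 274 in untreated cells. Both combinations lay below every untreated library, and both were called (-0.42, adjusted p = 0.00511 with STA9090+PIK75 and -0.41, adjusted p = 0.00603 with STA9090+BGT226). No single agent was called, the closest being BGT226 (-0.16, adjusted p = 0.292), although its libraries too lay below the untreated ones. TOP2A (topoisomerase II alpha, which untangles sister DNA, chr17:40388516-40417950, minus strand) had 245, 201 and 241 CPM with STA9090, 244, 253 and 268 with PIK75, 189, 179.6 and 194 with BGT226, 195, 229 and 218 with STA9090+PIK75, 175, 166 and 186 with STA9090+BGT226, and 202, 208 and 205 in untreated cells. All PIK75 libraries were above and all BGT226 and STA9090+BGT226 libraries below the untreated ones. PIK75 passed the test (0.31, SE 0.084, adjusted p = 0.0123) and BGT226 did not (-0.13, adjusted p = 0.271). STA9090+BGT226 passed (-0.22, adjusted p = 0.0413), a call that ended without STA9090+BGT226 replicate 1 or 2, or without untreated replicate 1, 2 or 3 (-0.25 to -0.19, adjusted p = 0.0518 to 0.131), in a fit of those groups alone (-0.22, adjusted p = 0.0567) and without a filter on low counts (-0.25, adjusted p = 0.0586).

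CDK1, the kinase that triggers mitosis, and its partners and activators gave 5 falls among 6 genes with BGT226 and 4 rises with PIK75. CDK1 itself (chr10:60778331-60794852, plus strand) had 44.7, 39.6 and 30.3 CPM with STA9090, 38.1, 39.2 and 36.9 with PIK75, 23.9, 21.4 and 23.6 with BGT226, 28.7, 36.2 and 42.4 with STA9090+PIK75, 26.1, 28.6 and 28.2 with STA9090+BGT226, and 29.3, 25.6 and 35.3 in untreated cells. The spread among its untreated, STA9090 and STA9090+PIK75 libraries was wide, and only the BGT226 and PIK75 libraries stood clear of the untreated ones. BGT226 was called (-0.38, SE 0.139, adjusted p = 0.0437) and PIK75 was not (0.35, adjusted p = 0.0802); the BGT226 call ended without BGT226 replicate 1, 2 or 3, or without untreated replicate 1 or 3 (-0.41 to -0.26, adjusted p = 0.0669 to 0.21). CCNB1 (cyclin B1, the CDK1 partner of mitotic entry, chr5:69167010-69178245, plus strand) had 158, 169.7 and 175 CPM with STA9090, 186, 189.6 and 178 with PIK75, 102, 102 and 105 with BGT226, 144, 146 and 152 with STA9090+PIK75, 104, 97.9 and 95.8 with STA9090+BGT226, and 136, 176 and 144 in untreated cells. Its 6 libraries with BGT226 or STA9090+BGT226 were the lowest and did not overlap any other group. The log2 fold change was -0.56, SE 0.0826, adjusted p = 4.11e-05 with BGT226 and -0.61, SE 0.0826, adjusted p = 7.97e-06 with STA9090+BGT226. The rise with PIK75 (0.28, adjusted p = 0.0215) was not called without PIK75 replicate 1 or 2, or without untreated replicate 1 or 3 (0.20 to 0.27, adjusted p = 0.0614 to 0.14), nor in a fit of those groups alone (0.28, adjusted p = 0.0934). CCNB2 (cyclin B2) had 85.6 to 92.7 CPM with PIK75, 52.1 to 54.2 with BGT226 and 61 to 66.5 in untreated cells, and was called in both (0.49, adjusted p = 5e-05 with PIK75 and -0.24, adjusted p = 0.0136 with BGT226). CCNA2 (cyclin A2) was lower with BGT226 (-0.35), STA9090+PIK75 (-0.28) and STA9090+BGT226 (-0.47). The phosphatases that activate CDK1 parted ways. CDC25C had 12.8, 14.6 and 13.7 CPM with PIK75, 13.5, 15.1 and 18.1 with STA9090+PIK75 and 8.32, 10.5 and 7.19 in untreated cells, so that both groups with PIK75 were above every untreated library. It was the member that rose most with PIK75 (0.65, SE 0.132, adjusted p = 0.00158) and with STA9090+PIK75 (0.84, SE 0.13, adjusted p = 3.82e-05). CDC25B rose with PIK75 (0.26, adjusted p = 0.0384) and, with STA9090+PIK75, was at -0.20 relative to untreated cells (adjusted p = 0.0742).

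The mitotic kinases also differed. PLK1, which acts from centrosome maturation to cytokinesis (chr16:23677656-23690367, plus strand), had 100.1, 105 and 113 CPM with STA9090, 92.2, 95.1 and 95.2 with PIK75, 71.2, 72.8 and 68.9 with BGT226, 75.5, 75.3 and 76.6 with STA9090+PIK75, 67.5, 60.2 and 65.5 with STA9090+BGT226, and 100.1, 112 and 95.2 in untreated cells. The STA9090+PIK75, BGT226 and STA9090+BGT226 libraries all lay below every library of the other 3 groups. PLK1 was lower with BGT226 (-0.53, SE 0.0703, adjusted p = 1.21e-05), STA9090+PIK75 (-0.44, SE 0.0702, adjusted p = 5.55e-05) and STA9090+BGT226 (-0.67, SE 0.0705, adjusted p = 4e-07). AURKA (Aurora A, which acts at the spindle poles, chr20:56369389-56392337, minus strand) had 41.8, 44 and 43.7 CPM with STA9090, 39.4, 43.9 and 36.9 with PIK75, 19.8, 22.2 and 21.8 with BGT226, 38.3, 39.5 and 43.1 with STA9090+PIK75, 23.3, 27.2 and 22.8 with STA9090+BGT226, and 37.3, 43.1 and 31.2 in untreated cells. Here only the groups with BGT226 stood apart, below all others. The fall was -0.81, SE 0.103, adjusted p = 9.05e-06 with BGT226 and -0.61, SE 0.102, adjusted p = 7.92e-05 with STA9090+BGT226. NEK2, a kinase of centrosome separation, rose with STA9090+PIK75 (0.54, SE 0.117, adjusted p = 0.00119), with 22.7 to 24.1 CPM against 15.5 to 16.9 CPM in untreated cells.

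The 4 genes of the chromosomal passenger complex, which corrects wrong attachments of chromosomes, moved together in 3 treatments. With PIK75 the log2 fold changes of AURKB (Aurora B), INCENP, CDCA8 (borealin) and BIRC5 (survivin) were 0.29, 0.29, 0.18 and 0.32, all called, with CDCA8 closest to the threshold (adjusted p = 0.046). Whether these 4 calls held with 1 library left out was not recorded. With BGT226 they were -0.32, -0.36, -0.64 and -0.64, and with STA9090+BGT226 -0.61, -0.58, -0.96 and -0.81, again all called. With STA9090+PIK75 BIRC5 alone rose (0.33, adjusted p = 0.0037), at 95.2, 96.3 and 96.5 CPM against 71.3, 86.2 and 71 CPM in untreated cells.

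In the spindle checkpoint, which holds back anaphase until chromosomes are attached, BUB3 was nearly level in all groups and TTK rose where PIK75 was given. BUB3 (chr10:123154277-123170467, plus strand) had 144, 147 and 122 CPM with STA9090, 145, 149 and 124 with PIK75, 149, 139.5 and 146 with BGT226, 153, 162 and 157 with STA9090+PIK75, 138, 141 and 139 with STA9090+BGT226, and 143, 146 and 145 in untreated cells. Its log2 fold changes against untreated cells ran from -0.07 to 0.12, none called, the smallest adjusted p being 0.238. TTK (MPS1, the kinase that starts checkpoint signalling) had 22.4, 25.3 and 26 CPM with PIK75, 25.2, 30.6 and 26.1 with STA9090+PIK75 and 15.6, 19.1 and 16.5 in untreated cells, with no overlap between either PIK75 group and the untreated one. It rose with PIK75 (0.52, SE 0.12, adjusted p = 0.00419) and with STA9090+PIK75 (0.68, SE 0.118, adjusted p = 0.000139). BUB1 and MAD2L1 fell with BGT226 (-0.33 and -0.39) and with STA9090+BGT226 (-0.53 and -0.54), and BUB1B (BubR1) fell in both as well and rose with PIK75 and STA9090+PIK75 (0.25 and 0.21).

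At the kinetochore, SPC25 departed from the rest. This subunit of the NDC80 complex, which grips microtubules, had 8.31, 9.29 and 7.2 CPM with STA9090, 5.09, 5.67 and 6.26 with PIK75, 6.21, 6.06 and 6.58 with BGT226, 5.8, 3.97 and 5.33 with STA9090+PIK75, 3.75, 3.85 and 4.96 with STA9090+BGT226, and 8.85, 9.74 and 7.53 in untreated cells. Apart from STA9090 alone, every treatment lay below every untreated library. It was the single member that fell with PIK75 (-0.63, SE 0.155, adjusted p = 0.00718), and it fell with BGT226 (-0.47, adjusted p = 0.0238), STA9090+PIK75 (-0.80, adjusted p = 0.000423) and STA9090+BGT226 (-1.05, adjusted p = 2.85e-05). Its complex partner NDC80 fell with BGT226 (-0.60, adjusted p = 0.00191) and was at -0.04 with PIK75 (adjusted p = 0.862), while NUF2 was not called with either (0.15, adjusted p = 0.562 with PIK75 and -0.35, adjusted p = 0.12 with BGT226). CENPA, the histone that marks centromeres, had 13.9, 12.3 and 12.7 CPM with PIK75, 8.18, 7.81 and 7.14 with BGT226, 7.5, 7.95 and 8.21 with STA9090+PIK75, 7.34, 8.75 and 6.74 with STA9090+BGT226, and 10.3, 11.9 and 11 in untreated cells. The last 3 of those treatments lay below the untreated libraries, and all 3 were called (-0.53, adjusted p = 0.00171, -0.49, adjusted p = 0.00261 and -0.55, adjusted p = 0.000898). SGO2, which protects cohesin at centromeres, was the member with the lowest level per kb of exon in untreated cells (0.484 CPM per kb, against 59.4 for CCNB1, the highest). It was 1 of 7 members not called with any treatment against untreated cells, with BUB3, CENPF, CKAP2, HMMR, NUF2 and NUSAP1. SGO1 fell with STA9090+BGT226 (-0.50, adjusted p = 0.0025). The large kinetochore protein CENPF, not called with any treatment, ranged over 55.8 to 90.1 CPM with STA9090+BGT226 and 46.2 to 70.1 CPM in untreated cells. CENPE, a kinetochore motor, was lower with BGT226 (-0.75, adjusted p = 0.0286), at 3.94 to 5.82 CPM against 6.29 to 9.39 CPM in untreated cells.

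Among the kinesin motors KIF2C, which takes apart microtubule ends, rose where PIK75 was given. It had 37.2, 41.2 and 41.1 CPM with STA9090, 50.5, 52.3 and 56 with PIK75, 33, 29.7 and 30.8 with BGT226, 63.3, 65 and 66.7 with STA9090+PIK75, 33.4, 29.4 and 30.1 with STA9090+BGT226, and 35.9, 42.4 and 37.8 in untreated cells. The STA9090+PIK75 libraries were the 3 highest and the PIK75 libraries the next 3. The log2 fold change was 0.45, SE 0.0753, adjusted p = 0.000259 with PIK75 and 0.75, SE 0.0747, adjusted p = 1.59e-07 with STA9090+PIK75, and -0.32 with BGT226 (adjusted p = 0.00415). KIF20A, a motor of the spindle midzone, had 90.3, 95.5 and 92.2 CPM with PIK75, 61.3, 56.9 and 64.7 with STA9090+PIK75 and 83.5, 87.7 and 69.6 in untreated cells, and fell with the combination (-0.40, adjusted p = 0.000382). KIF4A and KIF23 fell with BGT226 (-0.47 and -0.39), and KIF11 (Eg5, which pushes the poles apart) fell with STA9090+BGT226 (-0.28, adjusted p = 0.0391). KIF18A and KIF14 went the other way with STA9090+BGT226. KIF18A, which shortens kinetochore microtubules, had 4.71, 6.41 and 4.37 CPM with STA9090+BGT226 against 3.4, 3.92 and 2.96 CPM in untreated cells, all above, with replicate 2 highest (0.57, SE 0.174, adjusted p = 0.0126). That call ended without STA9090+BGT226 replicate 2, or without untreated replicate 3 (0.39 to 0.46, adjusted p = 0.0662 to 0.101). KIF14 had 8.45, 11 and 7.62 CPM against 6.51, 5.61 and 7.36 CPM (0.48, adjusted p = 0.0421), a call that ended without STA9090+BGT226 replicate 1 or 2, or without untreated replicate 1 or 2 (0.30 to 0.51, adjusted p = 0.0563 to 0.235), with DESeq2 (0.46, adjusted p = 0.057) and after the GC correction (0.35, adjusted p = 0.0682).

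Of the proteins that build and bundle spindle microtubules, TPX2, the activator of Aurora A, fell with BGT226 and STA9090+BGT226 (-0.45 and -0.62) and was 0.16 with PIK75 (adjusted p = 0.106). DLGAP5 (HURP), which stabilises the fibres to kinetochores, had 37.5, 39.8 and 39.3 CPM with PIK75, 20.3, 22.7 and 21.4 with BGT226 and 25.5, 26.8 and 27.8 in untreated cells, with the 3 groups fully apart. It rose with PIK75 (0.54, SE 0.0912, adjusted p = 0.000279) and fell with BGT226 (-0.31, SE 0.0946, adjusted p = 0.0168). PRC1, which bundles midzone microtubules, rose with PIK75 (0.31, adjusted p = 0.0107) and fell with BGT226 (-0.24, adjusted p = 0.0325). HMMR, NUSAP1 and CKAP2 ran from -0.31 (CKAP2 with STA9090+BGT226) to 0.44 (HMMR with STA9090+PIK75), the smallest adjusted p being 0.0578. ASPM, a spindle pole protein, had 38.1, 61.7 and 44.3 CPM with STA9090+BGT226 against 36.2, 34.8 and 39.2 CPM in untreated cells, and its call (0.39, adjusted p = 0.0309) ended without STA9090+BGT226 replicate 2, or without untreated replicate 1 or 2 (0.17 to 0.36, adjusted p = 0.0804 to 0.32) and after the GC correction (0.24, adjusted p = 0.0741).

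The genes of anaphase held the member that separated the PI3K inhibitors most. CDC20, which switches on the APC/C ubiquitin ligase (chr1:43358955-43363203, plus strand), had 96.6, 98 and 113 CPM with STA9090, 114, 118 and 128 with PIK75, 53, 55.3 and 52.4 with BGT226, 114, 113 and 118 with STA9090+PIK75, 55.3, 45.4 and 50.5 with STA9090+BGT226, and 85.9, 106 and 94 in untreated cells. Both groups with BGT226 were below, and both with PIK75 above, every untreated library. Levels were 53.6 ± 1.5 CPM with BGT226 and 95.2 ± 9.95 CPM in untreated cells (SD, n = 3), a log2 fold change of -0.83, SE 0.0865, adjusted p = 6.83e-07. CDC20 rose with PIK75 (0.33, adjusted p = 0.0089), a call that ended without untreated replicate 1 (0.26, adjusted p = 0.0748), and with STA9090+PIK75 (0.27, adjusted p = 0.0148), which ended without STA9090+PIK75 replicate 3, or without untreated replicate 1 or 3 (0.20 to 0.26, adjusted p = 0.0522 to 0.105). UBE2C, the ubiquitin-conjugating enzyme of the APC/C, and PTTG1 (securin) followed it with PIK75 (0.33 and 0.47) and BGT226 (-0.48 and -0.42). ESPL1 (separase, the protease that securin blocks) was -0.22 with PIK75 (adjusted p = 0.0774) and fell with STA9090+PIK75 (-0.57, adjusted p = 2.26e-05), at 63.2, 69.3 and 74.5 CPM against 95.5, 109 and 104 CPM in untreated cells.

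The cytokinesis genes were those called with STA9090 alone. ANLN (anillin, of the contractile ring) had 53.5, 50.8 and 57.1 CPM with STA9090 and 43.2, 43.8 and 41.8 CPM in untreated cells (0.32, SE 0.0793, adjusted p = 0.0332). ECT2, which activates RhoA at the midzone, had 50.6, 39.9 and 48 CPM with STA9090 and 34.1, 36.4 and 35 CPM in untreated cells (0.39, SE 0.0944, adjusted p = 0.0307). In both, every STA9090 library was above every untreated one. The ANLN call ended without STA9090 replicate 1 or 3, or without untreated replicate 1, 2 or 3 (0.28 to 0.34, adjusted p = 0.064 to 0.0933), and the ECT2 call without STA9090 replicate 1 or 3, or without untreated replicate 1, 2 or 3 (0.31 to 0.42, adjusted p = 0.0542 to 0.139). Both also ended after the GC correction (0.21, adjusted p = 0.212 for ANLN and 0.25, adjusted p = 0.133 for ECT2) and in a fit of the STA9090 and untreated groups alone (0.33, adjusted p = 0.15 and 0.40, adjusted p = 0.154).

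**Figure D3:**
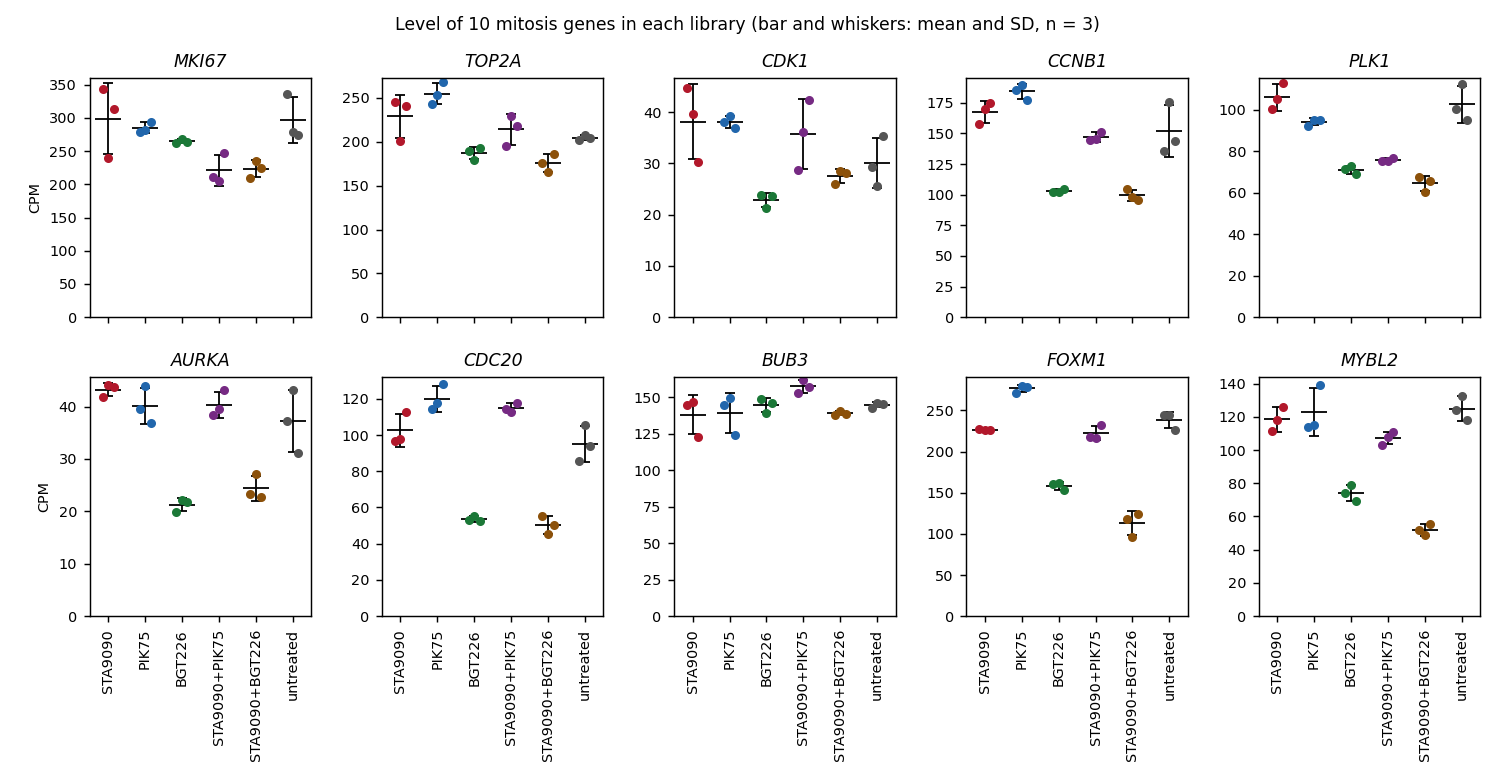
CPM of 10 of the genes in each library (points) by group, on axes that start at 0, with the mean (long bar) and SD (whiskers) of 3 libraries. CDC20 and AURKA libraries with BGT226 lie below all untreated ones, PLK1 is low also with STA9090+PIK75, and BUB3 is nearly level.

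Setting PIK75 against BGT226 asks directly how the inhibitors differ at the same stated concentration. Of the 50 members, 42 were higher with PIK75 and 0 lower, with a median log2 difference of 0.53 (all genes 0.00); 16.5% of all genes were called higher and 15.5% lower. DESeq2 called 40 higher and 0 lower, and at an unadjusted p under 0.05 edgeR had 43 higher and 0 lower. In 44 members the PIK75 libraries were all above the BGT226 libraries, as in 23.9% of all genes. CDC20 differed most, at 119.9 ± 7.16 CPM with PIK75 and 53.6 ± 1.5 CPM with BGT226 (1.16, SE 0.0865, adjusted p = 4.82e-09), a fold of 2.24. Next came BIRC5 (0.96, adjusted p = 4.91e-08) and AURKA (0.91, adjusted p = 1.25e-06). MKI67 was not called (0.10, adjusted p = 0.509), nor was BUB3 (-0.06, adjusted p = 0.631) or SPC25 (-0.16, adjusted p = 0.485). With STA9090 present in both, STA9090+PIK75 was higher than STA9090+BGT226 in 34 members and lower in 0 (median 0.50), against 20.9% of all genes higher and 22.4% lower. DESeq2 had 36 and 0 there, and at an unadjusted p under 0.05 edgeR had 37 and 0; without STA9090+BGT226 replicate 1, 1 member was lower. In the centromere and kinetochore group 6 of 8 were higher with PIK75 than with BGT226 (median 0.50) and 2 of 8 with STA9090+PIK75 than with STA9090+BGT226 (median 0.14); that difference was not tested. CDC20 (1.19, SE 0.0867, adjusted p = 1.4e-09), BIRC5 (1.14, adjusted p = 2.3e-09) and CDC25C (1.11, adjusted p = 1.18e-06) led.

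Each combination was set against its parts. The share of each agent in a combination was not given. An added agent and a changed dose of the other therefore cannot be told apart, here or in the interactions below. These comparisons share libraries with those above and with each other. Adding STA9090 to PIK75 lowered 15 members and raised 1, KIF2C, with a median of -0.14; 14% of all genes were called lower and 11.3% higher. The largest falls were in CENPA (-0.71, SE 0.116, adjusted p = 0.000134), KIF20A (-0.60, SE 0.0771, adjusted p = 8.7e-06) and CDC25B (-0.46, SE 0.0864, adjusted p = 0.000521), and KIF2C rose by 0.30 (adjusted p = 0.00502). CDC25B had 64.1, 65 and 74.5 CPM with STA9090+PIK75 and 91.2, 91.6 and 97.7 CPM with PIK75, without overlap. MKI67 was also lower (-0.37, adjusted p = 0.0199), a call that ended without PIK75 replicate 3, or without STA9090+PIK75 replicate 1 or 2 (-0.34 to -0.32, adjusted p = 0.059 to 0.0879). Without PIK75 replicate 1 or 2, 2 members rose. Adding PIK75 to STA9090 raised 4 members, KIF2C (0.71), CDC25C (0.68), TTK (0.47) and BIRC5 (0.30), and lowered 8, led by SPC25 (-0.73), CENPA (-0.59) and PLK1 (-0.48). Of all genes, 17.7% were called higher and 19.8% lower, against 8% and 16% of the members.

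Adding STA9090 to BGT226 changed few members, 5 lower (MYBL2, FOXM1, ESPL1, UBE2C and CDCA8) and 1 higher (ASPM), and few genes altogether, 1.7% lower and 0.988% higher. The lower count was 13 in a fit of the STA9090+BGT226 and BGT226 groups alone and 8 with DESeq2, and it was 2 or 3 without BGT226 replicate 1 or 2 or without STA9090+BGT226 replicate 1 or 2. Over all genes, those called lower went from 268 to 808 with the groups alone and to 428 with DESeq2. They went to 504 after the GC correction and to 479 without a filter. Without 1 of those libraries they were 99 to 135. ESPL1 (-0.40, adjusted p = 0.0167) was not called without BGT226 replicate 1 or 2, or without STA9090+BGT226 replicate 2 or 3 (-0.41 to -0.35, adjusted p = 0.0569 to 0.0968), and ASPM (0.56, adjusted p = 0.0329) was not called without BGT226 replicate 1, 2 or 3, or without STA9090+BGT226 replicate 2 or 3 (0.34 to 0.62, adjusted p = 0.0566 to 0.211). Adding BGT226 to STA9090 lowered 40 of 50 members and raised 0, with a median of -0.54 and with 20.9% of all genes lower and 19.5% higher. DESeq2 had the same 40 and 0 as counts, and at an unadjusted p under 0.05 edgeR had 41 lower and 0 higher. MYBL2 (-1.18, SE 0.0859, adjusted p = 3.02e-09), CDC20 (-1.02, SE 0.0866, adjusted p = 2.31e-08) and FOXM1 (-1.004, SE 0.0817, adjusted p = 1.42e-08) fell most.

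The interaction of STA9090 with PIK75 on the log2 scale, the STA9090 change in the presence of PIK75 minus that in its absence, was negative in 45 of 50 members, with a median of -0.29 (all genes -0.02). It was called negative in 13 members and positive in 0, against 5.73% and 3.54% of all genes; DESeq2 called 14 and 0, and at an unadjusted p under 0.05 edgeR had 23 negative and 2 positive. Among the called members, the largest was CENPA, in which STA9090 gave -0.71 with PIK75 and 0.10 without, an interaction of -0.82, SE 0.161, adjusted p = 0.00303. ASPM (-0.63, adjusted p = 0.0488) and KIF20A (-0.56, adjusted p = 0.0026) were next among them, and the B-type cyclins CCNB1 and CCNB2 had -0.46 and -0.45. The count was 6 to 8 without untreated replicate 1, STA9090 replicate 3, PIK75 replicate 2 or 3, or STA9090+PIK75 replicate 1 or 3, and 7 in a fit of the 4 groups alone. Of the 13 calls, only those of CENPA, ASPM, KIF20A, CCNB1, TOP2A and PLK1 were followed singly through these fits. The ASPM call ended without STA9090 replicate 1 or 3, without PIK75 replicate 2 or 3, without STA9090+PIK75 replicate 1 or 3, or without untreated replicate 1 or 2 (-0.66 to -0.49, adjusted p = 0.054 to 0.117), and the TOP2A call (-0.41, adjusted p = 0.0338) without STA9090 replicate 1 or 3, without PIK75 replicate 2 or 3, without STA9090+PIK75 replicate 1 or 3, or without untreated replicate 1 (-0.41 to -0.35, adjusted p = 0.0603 to 0.0971). TOP2A was also not called after the GC correction (-0.35, adjusted p = 0.0685), in a fit of the 4 groups alone (-0.40, adjusted p = 0.0981) or without a filter (-0.41, adjusted p = 0.0526). The PLK1 call (-0.36, adjusted p = 0.0273) ended without STA9090 replicate 3, without PIK75 replicate 1 or 2, without STA9090+PIK75 replicate 1, 2 or 3, or without untreated replicate 1 or 3 (-0.36 to -0.31, adjusted p = 0.0549 to 0.0853), and that of CCNB1 without untreated replicate 1 (-0.37, adjusted p = 0.0561). In the fit of the 4 groups alone neither PLK1 (-0.34, adjusted p = 0.0848) nor CCNB1 (-0.45, adjusted p = 0.0622) was called, and without a filter PLK1 was not (-0.36, adjusted p = 0.0828). With BGT226 the interaction with STA9090 was negative in 44 of 50 members, with a median of -0.20 (all genes 0.004). The members share the same libraries, so in neither interaction are their signs separate observations. The edgeR test called 0 members in either direction with BGT226, against 0.00633% of all genes positive and 0% negative. At an unadjusted p under 0.05 there were 17 negative and 0 positive members, and DESeq2 called 3 negative and 0 positive; without untreated replicate 2 edgeR called 1 negative. ANLN was the most negative of the edgeR values (-0.52, adjusted p = 0.179). Whether the interactions with PIK75 and BGT226 differ from each other was not tested.

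**Figure D4:**
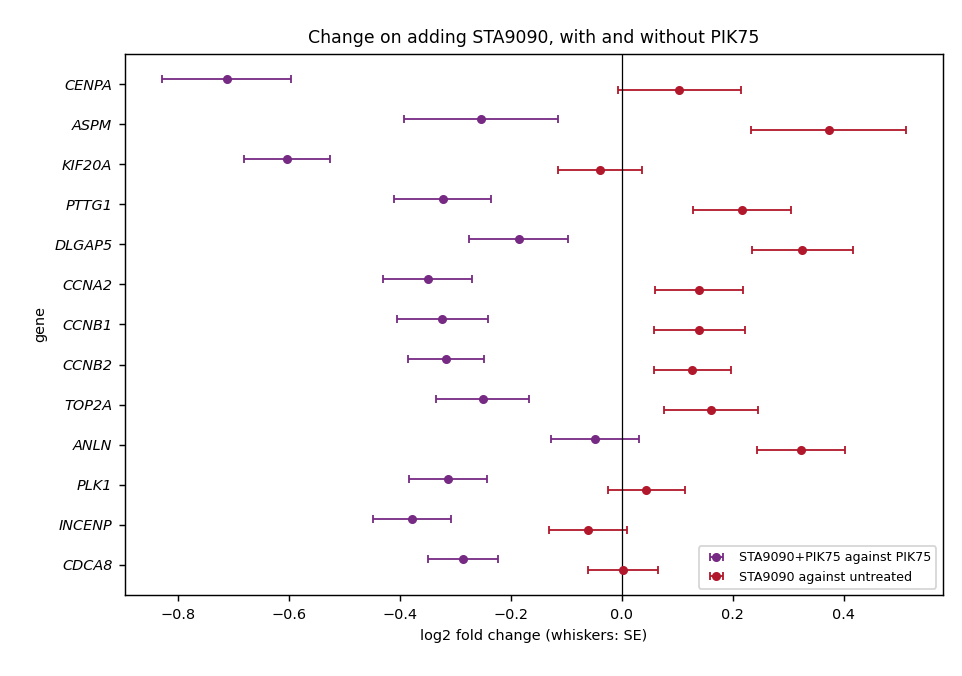
Log2 fold change (points) with SE (whiskers) on adding STA9090, to PIK75-treated cells (purple) and to untreated cells (red), for the 13 genes with a called interaction. The purple point lies left of the red one for each gene, from -0.71 against 0.10 in CENPA to -0.29 against 0.00 in CDCA8.

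Mitotic genes beyond the 50 were read from 5 lists of 104 genes, all tested: other kinetochore parts, other spindle and cytokinesis parts, condensin and cohesin, the APC/C, and regulators of entry and exit. They fell with BGT226 in 53 and rose in 2 (51% and 1.92%, against 15.7% and 12.8% of all genes; median -0.30), and fell with STA9090+BGT226 in 62 and rose in 3 (59.6% and 2.88%, against 20.4% and 19.4%; median -0.35). With PIK75 15 rose and 4 fell (14.4% and 3.85%, against 8.49% and 10.2% of all genes; median 0.05), led by NCAPG (condensin, 0.38, adjusted p = 0.00574) and TROAP (0.37, adjusted p = 0.0023) upwards and by PMF1, of the kinetochore and with an overlapping readthrough gene, downwards (-0.70, adjusted p = 7.24e-05). The 15 rises with PIK75 were uneven over the lists. The 27 other spindle, motor and cytokinesis genes held 9 (33.3%), and the 31 other kinetochore genes held 1 (3.23%, median 0.003). Condensin and cohesin held 2 of 16 (12.5%), the APC/C 1 of 14 (7.14%) and regulators of entry and exit 2 of 16 (12.5%). PIK75 against BGT226 gave 58 higher and 3 lower (55.8% and 2.88%, against 16.5% and 15.5%). The deepest falls with BGT226 were in TUBG1 (gamma-tubulin, which nucleates microtubules, -0.96, adjusted p = 7.58e-08) and CDC25A (-0.92, adjusted p = 2.95e-07), and with STA9090+BGT226 in SPC24, the direct partner of SPC25 (-1.46, adjusted p = 1.29e-07), and PKMYT1, a kinase that restrains CDK1 (-1.38, adjusted p = 1.39e-08). With STA9090+PIK75, 24 rose and 16 fell, shares of 23.1% and 15.4% near the 18.3% and 20.1% of all genes; SPC24 fell (-0.98, adjusted p = 1.24e-05) and CKS2, which binds CDK1, rose (0.58, adjusted p = 0.000294). With STA9090 alone, NCAPG rose (0.42, adjusted p = 0.0191) and PKMYT1 and LMNB2 (lamin B2) fell (-0.41 and -0.36).

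Of the 30 genes of the G1/S transition and replication, 7 fell with PIK75 (23.3%, against 10.2% of all genes; median -0.13), led by RRM2, a ribonucleotide reductase subunit (-0.88, adjusted p = 1.29e-06), and E2F2 (-0.66, adjusted p = 0.000101). They fell in 23 with BGT226 and in 26 with STA9090+BGT226 (76.7% and 86.7%, against 15.7% and 20.4% of all genes; medians -0.39 and -0.67). Their median log2 level relative to untreated cells was -0.14 ± 0.02 with PIK75, where that of the 50 mitotic genes was 0.21 ± 0.02 (SD, n = 3), so that the PIK75 libraries were below the untreated ones for the first list and above them for the second.

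The log2 fold changes were set against the base composition of the transcript. The longest transcript of each member (GENCODE 29) held 34.7 to 60.5% G and C. Across the 50 members, which share libraries, Spearman's rho of log2 fold change with GC was -0.65 with STA9090 (-0.39 over 15757 tested genes), 0.01 with PIK75 (0.13), -0.43 with BGT226 (-0.05), -0.24 with STA9090+PIK75 (-0.07) and -0.73 with STA9090+BGT226 (-0.14). For STA9090+BGT226 set against BGT226, rho was -0.66 (-0.205 over the tested genes). The 10 members lowest in GC (34.7 to 38.3%), among them KIF18A, KIF14, ASPM, CENPE and CDK1, had a median of -0.06 with STA9090+BGT226, and all tested genes in that range had 0.14. The 10 highest (51.4 to 60.5%), among them MYBL2, FOXM1, CDC20 and PLK1, had -0.84, and all genes in that range had -0.02. After a GC correction, chosen after these values were seen, STA9090 raised 0 members, PIK75 raised 26 and lowered 3, BGT226 lowered 33, and STA9090+BGT226 raised 1 and lowered 37. These corrected counts stand without the share of all genes called after the correction. Whether the larger counts are particular to the members therefore cannot be read from them.

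**Figure D5:**
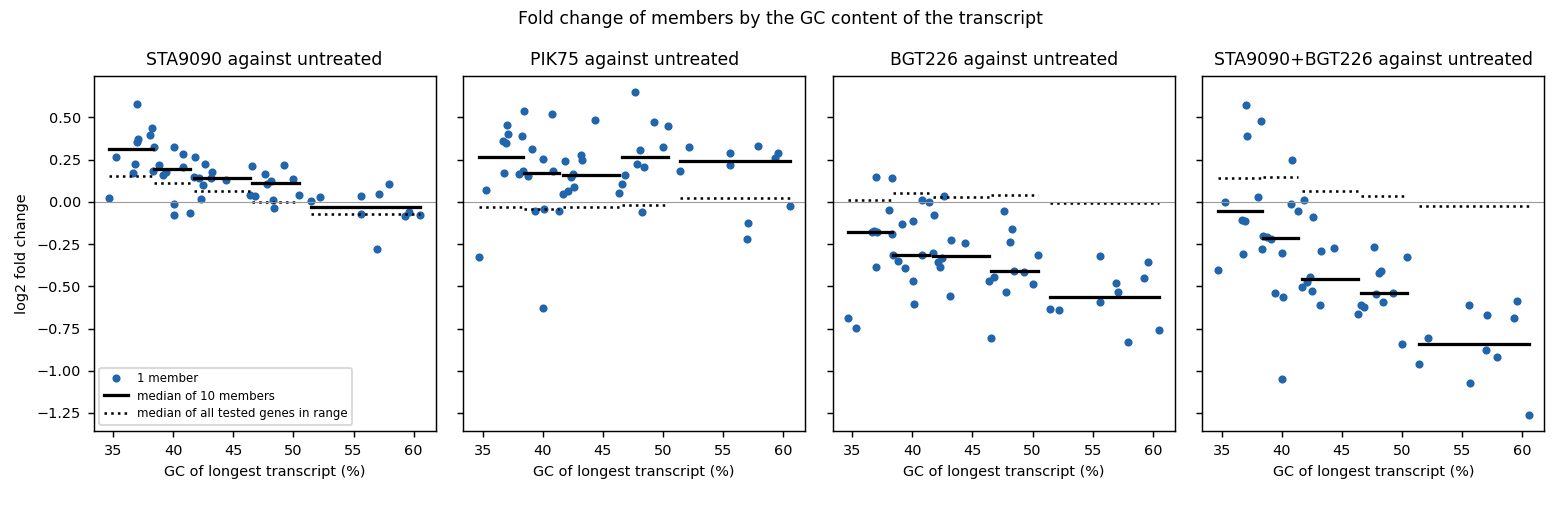
Log2 fold change of each of the 50 genes (points) against the GC percent of its longest transcript, for 4 treatments against untreated cells. Solid lines are medians of 10 genes and dotted lines medians of all tested genes in the same GC range; with STA9090+BGT226 the medians of 10 fall from -0.06 at the lowest GC to -0.84 at the highest.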

How the data were processed

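RNA of 18 libraries of NCI-H295R cells (6 groups of 3) was analysed from the deposited table of RSEM expected counts per gene. Per the submitters' processing notes, the authors used bcl2fastq 2.20, cutadapt 1.18, STAR 2.7.0f, RSEM 1.3.1 and genome build hg38. With annotation release and strandedness not given in the sources used here, reads of antisense or readthrough neighbours (such as that of BUB1B) could not be told apart. Expected counts were rounded to whole numbers (a change of at most 0.000381% of a library total), genes passing edgeR's filterByExpr (minimum count 10, minimum total 15) were kept, and 15787 genes were tested. The test was edgeR 4.0.16's quasi-likelihood test with TMM factors (0.903 to 1.13) and a model of group means over all 18 libraries, with Benjamini-Hochberg adjustment over all tested genes and a threshold of 0.05; fold changes are log2, SE is the fold change over the square root of F. Alternatives used DESeq2 1.42.0, RLE size factors, other filters, the compared groups alone, the 50 most counted genes left out, the replicate number as a block, each library left out, and, chosen after seeing the data, a GC correction (R 4.3.3). The pipeline was tested on simulated data. Gene positions are from GENCODE 29 and promoters from RefSeq (GRCh38.p14). The labels call the replicates biological without naming separate cultures, so p-values measure the spread between these samples. Values in every library are given for 10 anchor genes and for members with the 3 largest rises or falls of a comparison; of each other list, up to 2 genes a direction were named, and NUF2, NDC80 and others by role. Single calls were followed through the alternatives only for the 10 anchor genes and the 3 largest called rises and falls of each comparison. The members and lists were chosen with earlier results of these data known.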

Additional observations from a re-analysis of the deposited data

Results flagged for a closer look

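For 13 genes the effect of STA9090 differed between cells with and without PIK75 by the test of the interaction itself, with log2 values, all negative, of -0.82 for CENPA, -0.63 for ASPM, -0.56 for KIF20A, -0.54 for PTTG1, -0.51 for DLGAP5, -0.49 for CCNA2, -0.46 for CCNB1, -0.45 for CCNB2, -0.41 for TOP2A, -0.37 for ANLN, -0.36 for PLK1, -0.32 for INCENP and -0.29 for CDCA8. A negative value means that the change on adding STA9090 was lower in the presence of PIK75 than in its absence. The share of each agent in the combination was not given, so a changed dose cannot be told apart from the added agent. With 1 library left out, 6 to 15 genes were called, and the calls of ASPM, TOP2A, PLK1 and CCNB1 ended in some of those fits. Of the rest, only CENPA and KIF20A were followed singly, so whether the other calls held was not recorded. CENPA, for example, stood at -0.71 on adding STA9090 to PIK75 and at 0.10 on adding it to untreated cells.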

How the results depend on the processing

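RLE size factors, the stricter filter, leaving out the 50 most counted genes and the replicate block moved no count by more than 1.5 times. Without a filter, 5 members were higher with STA9090, 3 were higher with STA9090+BGT226 than with BGT226, and 2 had a negative STA9090 by BGT226 interaction. Over all genes those counts went from 183 to 369, from 156 to 348 and from 0 to 187. With DESeq2, 3 members had a negative STA9090 by BGT226 interaction (18 of all genes) and 1 was lower with STA9090. There, 8 members were lower with STA9090+BGT226 than with BGT226 (428 of all genes). With the compared groups alone, 0 members were higher with STA9090, 12 were higher with PIK75, 3 were higher and 13 lower with STA9090+BGT226 than with BGT226, and 7 had a negative STA9090 by PIK75 interaction. Over all genes, 0 were higher with STA9090, and 526 were higher and 808 lower with STA9090+BGT226 than with BGT226. Negative PIK75 interactions went from 904 to 515 of all genes, and the count of all genes higher with PIK75 moved by no more than 1.5 times. The GC correction gave 0 members higher with STA9090, 3 lower with PIK75, 1 higher with STA9090+BGT226, and 7 higher with STA9090+PIK75 than with STA9090. The matching counts of all genes moved by no more than 1.5 times. With 1 library left out, counts against untreated cells ran from 0 to 4 higher with STA9090, 11 to 16 higher and 1 to 2 lower with PIK75, 25 to 31 lower with BGT226, 7 to 11 higher and 7 to 8 lower with STA9090+PIK75, and 0 to 3 higher and 31 to 34 lower with STA9090+BGT226. They ran from 1 to 2 higher and 11 to 15 lower for STA9090+PIK75 against PIK75, 4 to 6 higher and 6 to 12 lower against STA9090, 0 to 1 higher and 2 to 4 lower for STA9090+BGT226 against BGT226, and 37 to 42 lower against STA9090. They ran from 34 to 39 higher for PIK75 against BGT226, 31 to 35 higher and 0 to 1 lower for STA9090+PIK75 against STA9090+BGT226, and 6 to 15 and 0 to 1 negative interactions with PIK75 and BGT226. All genes called higher went to 32 with STA9090 without STA9090 replicate 1, and to 853 with PIK75 without untreated replicate 1. The cause of these moves was not tested. Over 45 pairs of libraries with the same replicate number, deviations from the group means correlated at -0.15 to 0.12. Over 90 pairs with different numbers they correlated at -0.18 to 0.18. These values give no sign of pairing by number, but they cannot show how the samples were handled. With the number as a block PIK75 raised 17 and BGT226 lowered 30, and the calls of CDK1 with BGT226 (-0.39, adjusted p = 0.0552), KIF14 with STA9090+BGT226 (0.47, adjusted p = 0.0546) and the ASPM interaction with PIK75 (-0.63, adjusted p = 0.059) ended. Each group has 3 libraries of 10.2 to 21.1 M counts, and in some groups SGO2, CENPE, CENPF and HMMR had a wide spread between replicates relative to their mean.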

Other observations

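Of 15 tested genes for CDK inhibitors and subunits of the DREAM complex, which hold mitotic genes silent in resting cells, 2 were higher and 6 lower with BGT226, and 3 were higher and 7 lower with STA9090+BGT226. The higher shares, 13.3% and 20%, were near those of all genes (12.8% and 19.4%), and the lower shares were 40% and 46.7%, against 15.7% and 20.4%. CDKN1A (p21, an inhibitor of CDKs) was lower in 4 of the 5 treatments, at 80.1 ± 2.21 CPM with PIK75, 37.4 ± 1.61 with BGT226, 45.9 ± 2.13 with STA9090+PIK75, 30.7 ± 2.75 with STA9090+BGT226 and 96.8 ± 9.92 in untreated cells (SD, n = 3). The log2 fold changes of CDKN1A were -0.27, adjusted p = 0.0196 with PIK75, -1.38, adjusted p = 5.86e-10 with BGT226, -1.07, adjusted p = 3.22e-09 with STA9090+PIK75 and -1.65, adjusted p = 2.17e-11 with STA9090+BGT226, and it was -0.01, adjusted p = 0.972 with STA9090. CDKN1B (p27) was higher with PIK75 (0.29, adjusted p = 0.00276). RBL1 (p107, an RB-like protein) and TFDP2 (an E2F partner) were higher with BGT226 (0.31 and 0.40) and with STA9090+BGT226 (0.44 and 0.48). CDKN2C, CDKN2D and TFDP1 were lower with BGT226 (-0.35, -0.94 and -0.49), with STA9090+PIK75 (-0.60, -0.91 and -0.39) and with STA9090+BGT226 (-0.78, -1.34 and -0.62).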
